A study of Homo sapiens with 11 samples.

Results

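The genes described here are 10 receptor tyrosine kinases outside the ErbB and Eph families: IGF1R, MET, FGFR1, FGFR2, FGFR3, AXL, DDR1, DDR2, KDR and MST1R. They were chosen by name, by matching each symbol to the Ensembl gene identifier in the deposited expression table, and are 10 of its 40460 genes. All 10 passed the filter on low values, so none was left out.

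The study measured total RNA, after removal of ribosomal RNA, from hTert-HME1, a line of human mammary epithelial cells made immortal with telomerase. There were 3 libraries transfected with the siRNA named BRCA2-1 in medium without EGF, 3 with the same siRNA in medium with EGF, 2 with the siRNA named control-2 without EGF and 3 with it in the complete medium with EGF. All 11 libraries were from cells at passage 6, and all cells were transfected with RNAiMAX and grown in a mammary epithelial growth medium. The labels give 1 siRNA for each target and letter the biological replicates A, B and C, with A and C only for control siRNA without EGF. Time without EGF is not given in the sources used here, and with replicates of 1 line the p-values measure the spread between these libraries.

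Receptor tyrosine kinases are membrane proteins that bind a ligand outside the cell and carry a kinase domain inside it. Ligand binding brings kinase domains together, they phosphorylate each other, and adaptors then pass the signal to the RAS-MAPK and PI3K-AKT pathways. EGF, the ligand removed here, acts through the ErbB receptors and is a standard growth requirement of cultured mammary epithelial cells. The FGF, IGF, HGF, GAS6 and VEGF receptors use many of the same adaptors, and DDR1 and DDR2 are unusual in that collagen is their ligand.

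BRCA2, the siRNA target, showed no reduction in any of the 6 libraries that carry its label. Its log2 value was 12.11 to 12.48 in libraries labelled BRCA2 siRNA without EGF, 12.37 to 12.43 in those with EGF, 11.44 to 11.65 in control siRNA libraries without EGF and 12.13 to 12.48 in those with EGF. With EGF the labelled groups differed by 0.05 ± 0.12 (moderated SE, limma adjusted p = 0.999), and without EGF BRCA2 was higher by 0.74 ± 0.13 in the libraries labelled BRCA2 siRNA (limma adjusted p = 0.00397). Every direction between siRNAs given here is therefore one between labelled libraries. All values are on the log2 scale of the deposited table, which gives no counts, so depth per library is unknown. For each gene the mean of the 4 A libraries equals the mean of the 7 B and C libraries to within 7.2e-09, so levels shared by all A libraries cannot be compared with those of B and C.

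The 8 basal mammary markers, KRT5 and KRT14 among them, all passed the filter, and the log2 of their summed linear level was 19.42 to 19.59 in libraries labelled BRCA2 siRNA without EGF, 19.12 to 19.26 with EGF, 19.67 to 19.82 in control siRNA libraries without EGF and 18.98 to 19.24 with EGF. Of 8 general epithelial markers 6 passed the filter, and the log2 of their summed level was 12.61 to 12.68 in libraries labelled BRCA2 siRNA without EGF, 12.75 to 13.00 with EGF, 13.36 to 13.37 in control siRNA libraries without EGF and 12.75 to 13.10 with EGF. EPCAM was at or below 0.67 in all 11 libraries and GRHL2 at or below 0.23. In bulk RNA of this kind, fewer cells that make a transcript and less of it per cell cannot be told apart.

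RefSeq's promoter table (GRCh38.p14, whereas the submitters' processing notes name hg19) held a single start for FGFR3, KDR and IGF1R, and these promoters are shown because the 3 genes were all higher without EGF under control siRNA and lower in libraries labelled BRCA2 siRNA without EGF. Each sequence is the 250 bases before the start, read 5′ to 3′ on the gene's own strand, with capitals marking the GC box GGGCGG on either strand, the core of the element bound by SP1.
FGFR3 (chr4:1793043-1793292, plus strand): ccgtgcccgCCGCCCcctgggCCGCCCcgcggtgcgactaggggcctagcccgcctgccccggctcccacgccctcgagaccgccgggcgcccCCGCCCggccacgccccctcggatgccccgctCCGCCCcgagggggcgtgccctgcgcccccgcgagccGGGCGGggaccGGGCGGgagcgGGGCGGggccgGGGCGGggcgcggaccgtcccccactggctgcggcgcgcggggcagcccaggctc
KDR (chr4:55125596-55125845, minus strand): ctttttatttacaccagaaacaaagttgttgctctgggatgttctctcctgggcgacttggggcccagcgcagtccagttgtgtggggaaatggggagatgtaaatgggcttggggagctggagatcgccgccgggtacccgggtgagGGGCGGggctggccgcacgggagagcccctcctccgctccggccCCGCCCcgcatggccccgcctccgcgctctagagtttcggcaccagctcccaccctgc
IGF1R (chr15:98648289-98648538, plus strand): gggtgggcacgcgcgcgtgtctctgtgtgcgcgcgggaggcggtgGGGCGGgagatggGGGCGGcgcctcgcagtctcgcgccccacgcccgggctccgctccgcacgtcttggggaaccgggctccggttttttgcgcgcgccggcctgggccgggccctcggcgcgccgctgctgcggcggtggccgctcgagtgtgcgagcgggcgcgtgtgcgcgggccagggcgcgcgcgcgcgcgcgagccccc
The FGFR3 window held 8 GC boxes, the KDR window 2 and the IGF1R window 2. Of 35116 RefSeq promoter windows of the same length, 42.6% held at least 1. The FOXO core GTAAACA, the AP-1 site TGANTCA, the TATA box TATAAA and the E-box CACGTG, searched on both strands, were in none of the 3 windows and in 2.98%, 6.57%, 10.7% and 6.34% of all windows. A match is a description of these letters and shows no binding.

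Taking EGF away from control siRNA cells went with higher RNA for 5 of the 10 receptors and lower RNA for 3. FGFR3, FGFR2 and KDR showed the largest differences, at 11.3-fold, 8.63-fold and 5.68-fold higher, followed by IGF1R at 2.41-fold and DDR1 at 2.03-fold. AXL fell to 0.411 of its level with EGF, and FGFR1 and DDR2 fell by less than that. MET and MST1R did not pass the test. In this comparison 50.8% of the 17945 genes tested passed, 24.7% higher and 26.1% lower (limma, Benjamini-Hochberg adjusted p under 0.05), and the median difference was 0.65 over the 10 receptors and -0.0036 over all genes tested. The 2 libraries without EGF lay wholly above the 3 with EGF for 6 receptors and wholly below for 4, as 66.5% of all genes tested did in 1 direction or the other (32.9% above and 33.6% below).

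**Figure D1:**
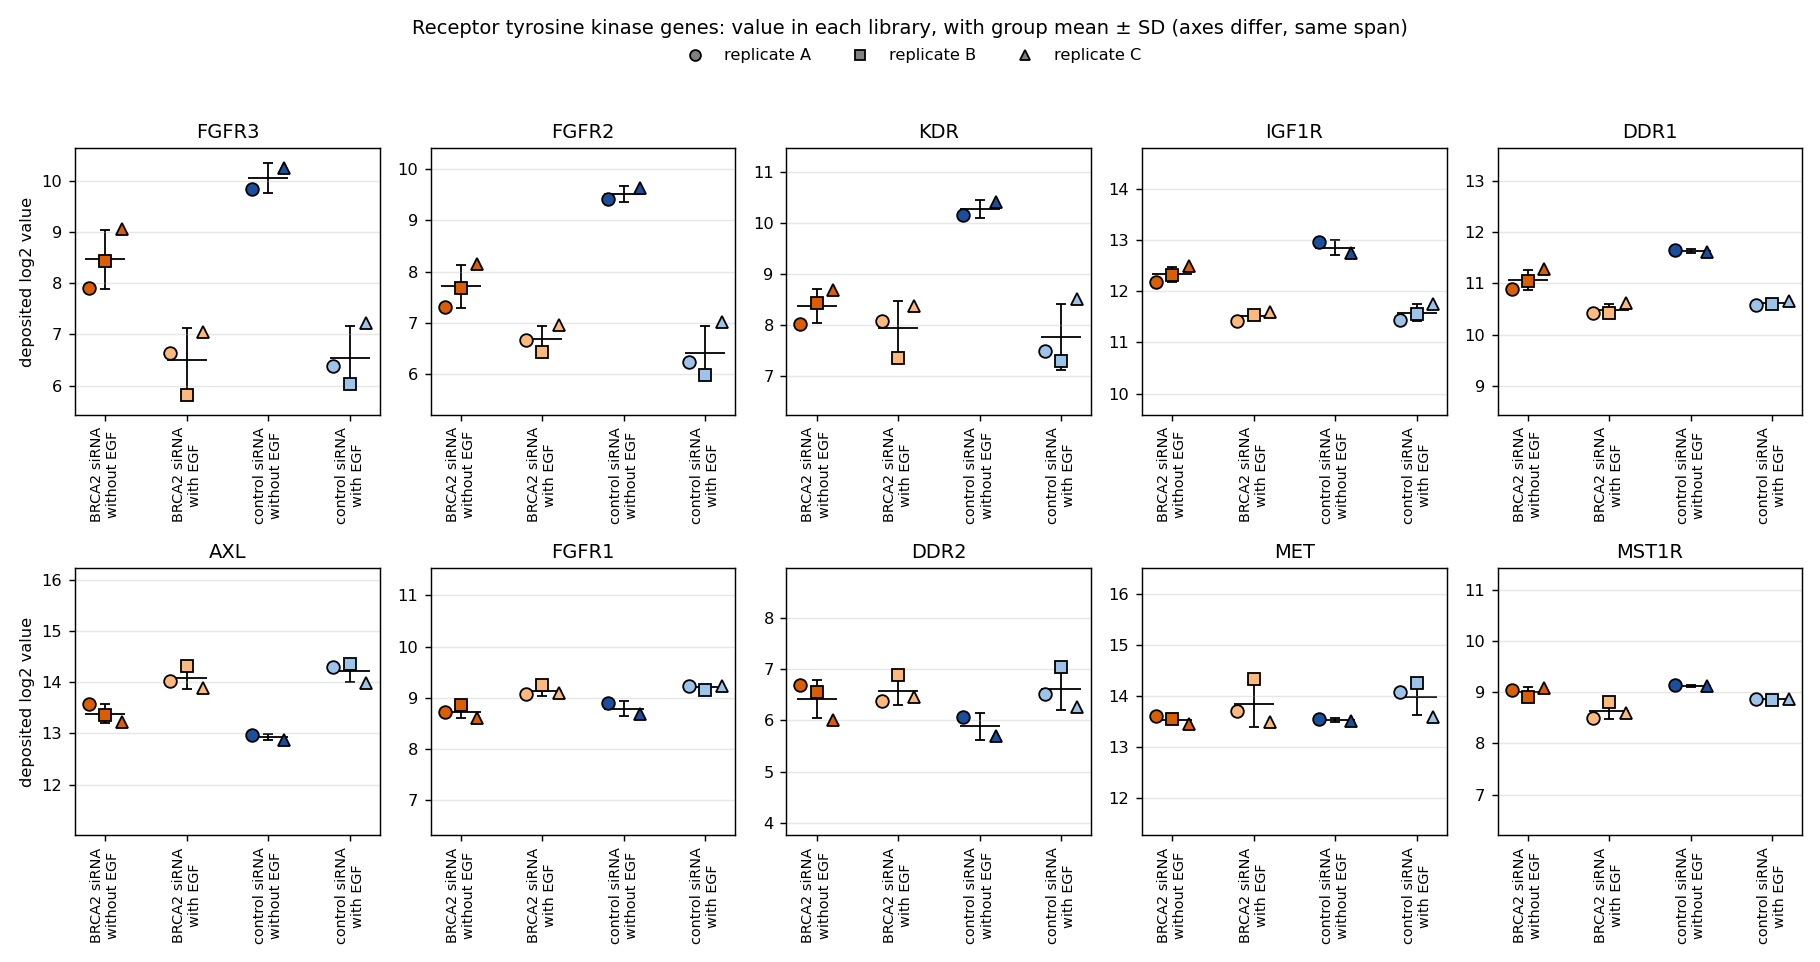
Deposited log2 value (vertical axis, its own range in each panel with the same span) of the 10 receptor genes in each of the 11 libraries, with group mean and SD as line and bar (n = 3, or 2 for control siRNA without EGF). Circles, squares and triangles are replicates A, B and C. FGFR3, FGFR2 and KDR stand highest in both control siRNA libraries without EGF, and AXL lowest.

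FGFR1, FGFR2 and FGFR3 are receptors for fibroblast growth factors, and FGFR2 is the FGF receptor of many epithelia. FGFR3 without EGF had log2 values of 7.92, 8.43 and 9.05 in libraries labelled BRCA2 siRNA (replicates A, B and C) and 9.84 and 10.25 in control siRNA libraries (A and C). Its values with EGF were 6.64, 5.81 and 7.04 in libraries labelled BRCA2 siRNA and 6.38, 6.03 and 7.23 in control siRNA libraries. The groups without EGF stood apart from each other and above both groups with EGF, whose values overlapped. On withdrawal of EGF FGFR3 rose by 1.97 ± 0.38 in libraries labelled BRCA2 siRNA (3.91-fold, limma adjusted p = 0.00466) and by 3.50 ± 0.42 in control siRNA libraries (limma adjusted p = 7.80e-05).

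FGFR2 without EGF had values of 7.31, 7.69 and 8.15 in libraries labelled BRCA2 siRNA and 9.41 and 9.63 in control siRNA libraries. With EGF the values were 6.66, 6.42 and 6.95 in libraries labelled BRCA2 siRNA and 6.24, 5.99 and 7.01 in control siRNA libraries. As for FGFR3, the groups without EGF stood apart from each other and above both groups with EGF, which overlapped. Withdrawal raised FGFR2 by 1.04 ± 0.27 in libraries labelled BRCA2 siRNA (2.05-fold, limma adjusted p = 0.0176) and by 3.11 ± 0.30 in control siRNA libraries (limma adjusted p = 2.52e-05). The first of these calls was lost without BRCA2 siRNA with EGF replicate A (1.03, limma adjusted p = 0.0609), without BRCA2 siRNA without EGF replicate B (1.05, 0.0506) and without BRCA2 siRNA without EGF replicate C (0.82, 0.0755).

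FGFR1 went the other way. Without EGF its values were 8.73, 8.86 and 8.61 in libraries labelled BRCA2 siRNA and 8.89 and 8.69 in control siRNA libraries, and with EGF they were 9.07, 9.25 and 9.09 in libraries labelled BRCA2 siRNA and 9.24, 9.15 and 9.24 in control siRNA libraries. The libraries without EGF all lay below those with EGF, and the siRNA groups overlapped in both media. FGFR1 fell by 0.41 ± 0.10 in libraries labelled BRCA2 siRNA (limma adjusted p = 0.0141) and fell by 0.42 ± 0.11 in control siRNA libraries (limma adjusted p = 0.00916). Without BRCA2 siRNA without EGF replicate C the first value was -0.34 (limma adjusted p = 0.0598), and without control siRNA without EGF replicate C the second was -0.32 (limma adjusted p = 0.105).

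KDR encodes VEGF receptor 2, the main signalling receptor for VEGFA and best known from endothelial cells. Without EGF it had values of 8.03, 8.42 and 8.68 in libraries labelled BRCA2 siRNA and 10.15 and 10.40 in control siRNA libraries. With EGF it had 8.09, 7.36 and 8.38 in libraries labelled BRCA2 siRNA and 7.49, 7.31 and 8.50 in control siRNA libraries. Both control siRNA libraries without EGF stood above all 9 others, which overlapped. Withdrawal raised KDR by 2.51 ± 0.36 in control siRNA libraries (limma adjusted p = 0.000223), and the difference was 0.43 ± 0.32 in libraries labelled BRCA2 siRNA (limma adjusted p = 0.330).

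Of 9 endothelial markers 8 were in the table and 2, TEK and ERG, passed the filter. CDH5, which encodes VE-cadherin, lay between -0.30 and -0.01, CLDN5 between 0.79 and 1.05 and EMCN between 1.41 and 1.90 in all 11 libraries. The summed endothelial level was 5.61 to 5.78 in libraries labelled BRCA2 siRNA without EGF, 5.58 to 6.14 with EGF, 5.52 to 5.75 in control siRNA libraries without EGF and 5.98 to 6.06 with EGF. Most of the markers in this sum were below the filter, and TEK reached the highest value of the 8, at 5.12. The 2 markers past the filter went opposite ways on withdrawal under control siRNA, where ERG rose by 0.91 ± 0.25 as KDR did (limma adjusted p = 0.0117) and TEK fell by 1.13 ± 0.25 (limma adjusted p = 0.00369). The call of ERG was lost without control siRNA without EGF replicate A (limma adjusted p = 0.156). Both genes were near the filter, with log2 values of 2.42 to 3.90 for ERG and 3.60 to 5.12 for TEK over all 11 libraries. ERG reached the filter in some libraries only, so its rise is one of low values. The part of the endothelial markers in the KDR result was not tested.

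IGF1R, the receptor through which IGF1 and IGF2 promote growth and survival, differed between the media under both siRNAs. Without EGF its values were 12.18, 12.32 and 12.48 in libraries labelled BRCA2 siRNA and 12.96 and 12.75 in control siRNA libraries. With EGF they were 11.43, 11.54 and 11.60 in libraries labelled BRCA2 siRNA and 11.44, 11.56 and 11.76 in control siRNA libraries. All 5 libraries without EGF lay above all 6 with EGF. IGF1R rose on withdrawal by 0.81 ± 0.11 in libraries labelled BRCA2 siRNA (1.75-fold, limma adjusted p = 0.000954) and by 1.27 ± 0.12 in control siRNA libraries (limma adjusted p = 2.16e-05).

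DDR1, the collagen receptor of epithelial cells, had values without EGF of 10.89, 11.04 and 11.28 in libraries labelled BRCA2 siRNA and 11.66 and 11.61 in control siRNA libraries. The values with EGF were 10.43, 10.42 and 10.62 in libraries labelled BRCA2 siRNA and 10.58, 10.59 and 10.66 in control siRNA libraries. As for IGF1R, the media separated all libraries and the siRNA groups overlapped with EGF. DDR1 rose by 0.58 ± 0.10 in libraries labelled BRCA2 siRNA (limma adjusted p = 0.00288) and by 1.02 ± 0.11 in control siRNA libraries (limma adjusted p = 4.52e-05).

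DDR2, the collagen receptor best known from fibroblasts, had values without EGF of 6.69, 6.56 and 6.00 in libraries labelled BRCA2 siRNA and 6.07 and 5.70 in control siRNA libraries. With EGF it had 6.38, 6.88 and 6.47 in libraries labelled BRCA2 siRNA and 6.53, 7.04 and 6.26 in control siRNA libraries. Neighbouring groups overlapped at every step of the order, and only the control siRNA libraries were separated by medium. The withdrawal difference was -0.16 ± 0.24 in libraries labelled BRCA2 siRNA (limma adjusted p = 0.654) and -0.72 ± 0.27 in control siRNA libraries (limma adjusted p = 0.0431). This call was lost in 7 of the 11 fits that leave out 1 library each: without control siRNA with EGF replicate A (-0.77, limma adjusted p = 0.0734) or B (-0.51, 0.133), without BRCA2 siRNA with EGF replicate A (-0.72, 0.0531) or C (-0.72, 0.0507), without BRCA2 siRNA without EGF replicate B (-0.72, 0.0556), and without control siRNA without EGF replicate A (-0.91, 0.0654) or C (-0.54, 0.248). The 10 fibroblast and mesenchymal markers all passed the filter, and their summed level was 15.05 to 15.08 in libraries labelled BRCA2 siRNA without EGF, 15.38 to 15.54 with EGF, 15.00 to 15.01 in control siRNA libraries without EGF and 15.31 to 15.54 with EGF. This sum was lower without EGF, but VIM, the most abundant of the 10, carries it, and most markers did not follow it. In libraries labelled BRCA2 siRNA 3 of the 10 rose on withdrawal and 2 fell (median 0.23), and under control siRNA 6 rose and 2 fell (median 0.98). Of all genes tested 27.1% and 50.8% passed in these comparisons. VIM and ZEB1 were the 2 that fell under both siRNAs, as FGFR1 did, and the part of these markers in the FGFR1 and DDR2 results was not tested.

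AXL binds GAS6 and is best known from mesenchymal and drug-tolerant carcinoma cells. Without EGF its values were 13.58, 13.36 and 13.22 in libraries labelled BRCA2 siRNA and 12.97 and 12.88 in control siRNA libraries. With EGF they were 14.02, 14.32 and 13.89 in libraries labelled BRCA2 siRNA and 14.29, 14.36 and 13.98 in control siRNA libraries. The groups without EGF stood apart from each other and below both groups with EGF. AXL fell by 0.69 ± 0.14 in libraries labelled BRCA2 siRNA (0.620-fold, limma adjusted p = 0.00498) and fell by 1.28 ± 0.15 in control siRNA libraries (limma adjusted p = 6.72e-05).

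MET, the receptor of hepatocyte growth factor, had values without EGF of 13.62, 13.55 and 13.45 in libraries labelled BRCA2 siRNA and 13.56 and 13.51 in control siRNA libraries. In the complete medium MET had 13.70, 14.33 and 13.49 in libraries labelled BRCA2 siRNA and 14.08, 14.25 and 13.59 in control siRNA libraries. The spread with EGF was wide, with the B library highest under both siRNAs, and neighbouring groups overlapped throughout. The withdrawal difference was -0.30 ± 0.20 in libraries labelled BRCA2 siRNA (limma adjusted p = 0.286) and -0.44 ± 0.23 in control siRNA libraries (limma adjusted p = 0.127). The control siRNA difference passed the test without control siRNA with EGF replicate C (-0.63, limma adjusted p = 0.0226) and without BRCA2 siRNA with EGF replicate B (-0.44, limma adjusted p = 0.0377).

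MST1R, also called RON, is the receptor of macrophage-stimulating protein and the closest relative of MET. Without EGF it had values of 9.05, 8.92 and 9.08 in libraries labelled BRCA2 siRNA and 9.14 and 9.11 in control siRNA libraries. In the complete medium MST1R had 8.50, 8.81 and 8.59 in libraries labelled BRCA2 siRNA and 8.87, 8.85 and 8.86 in control siRNA libraries. Its 4 groups did not overlap at any step of their order, in which control siRNA without EGF was highest and BRCA2 siRNA with EGF lowest. MST1R rose by 0.38 ± 0.10 on withdrawal in libraries labelled BRCA2 siRNA (1.30-fold, limma adjusted p = 0.0172), and the difference was 0.27 ± 0.11 in control siRNA libraries (limma adjusted p = 0.0619). The first call was lost without BRCA2 siRNA with EGF replicate A (0.31, limma adjusted p = 0.0787) and without BRCA2 siRNA without EGF replicate C (0.35, limma adjusted p = 0.0648), and the second passed without BRCA2 siRNA with EGF replicate B (0.27, limma adjusted p = 0.0330).

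In libraries labelled BRCA2 siRNA, EGF withdrawal thus raised 5 receptors (FGFR3, FGFR2, IGF1R, DDR1 and MST1R) and lowered 2 (AXL and FGFR1), while KDR, MET and DDR2 did not pass. Of all genes tested 27.1% passed, 13.4% higher and 13.8% lower, and the median difference was 0.41 over the 10 receptors and 0.0032 over all genes. The 3 libraries without EGF lay wholly above the 3 with EGF for 5 receptors and wholly below for 2, as 46.6% of all genes did in 1 direction or the other (22.2% above and 24.4% below). All 10 receptors had the same sign of difference under both siRNAs, and 9 of them the smaller difference in libraries labelled BRCA2 siRNA. MST1R was the exception. Of the 10, only FGFR2 and KDR passed the test of that difference, given below. These counts were not made over all genes, so they show no trait of the receptors. Fewer of all genes also passed in libraries labelled BRCA2 siRNA, 27.1% against 50.8% under control siRNA.

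**Figure D2:**
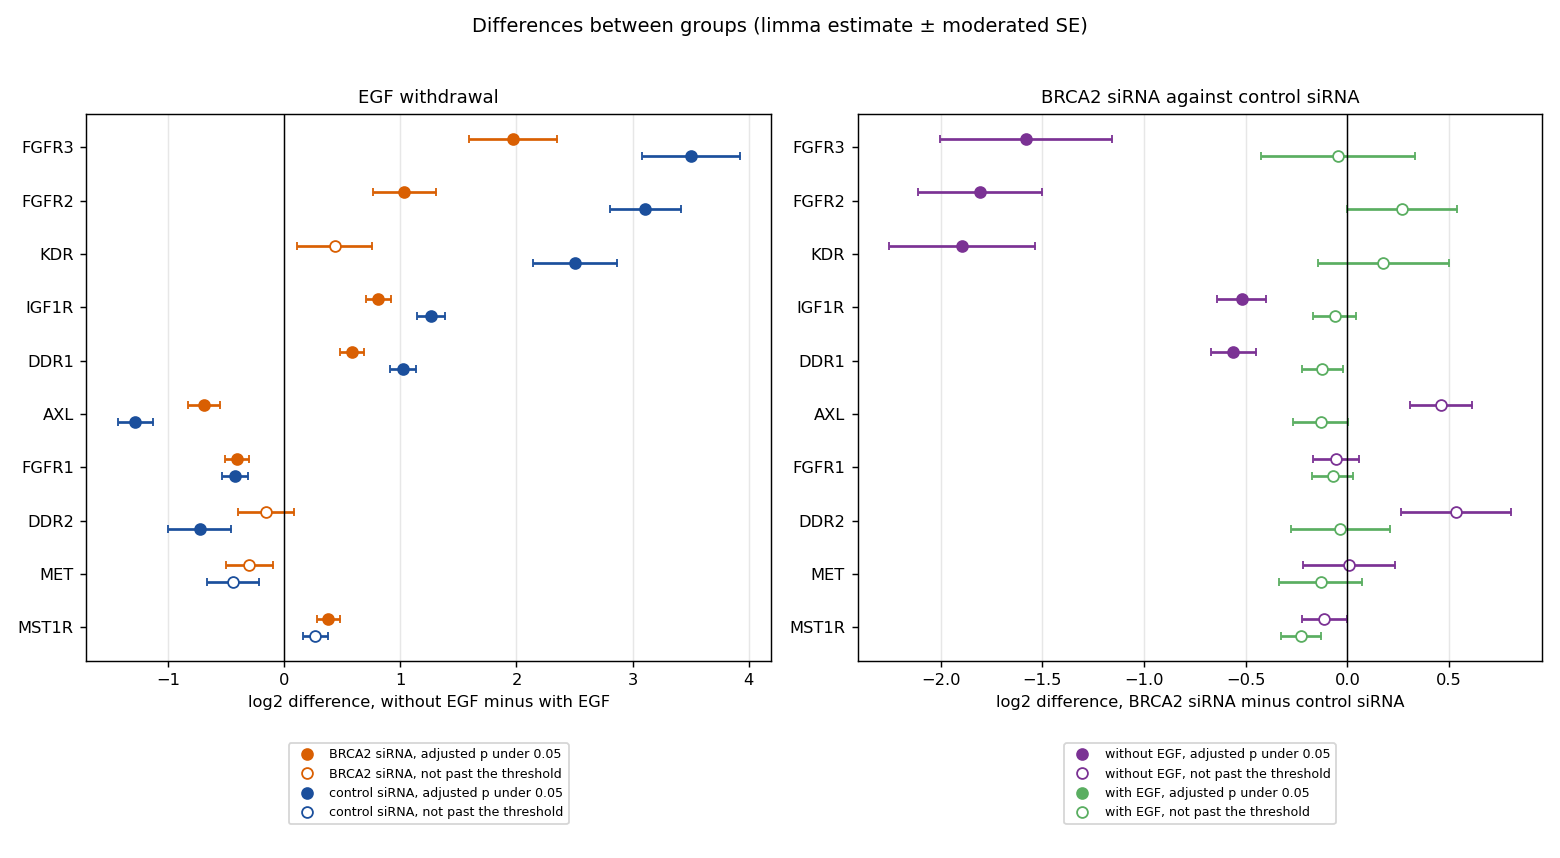
Log2 differences between groups (horizontal axis, limma estimate with moderated SE as bars) for the 10 receptor genes, filled where the adjusted p was under 0.05. FGFR3, FGFR2 and KDR lie farthest to the right for EGF withdrawal with control siRNA, at 3.50, 3.11 and 2.51, and farthest to the left for BRCA2 siRNA against control siRNA without EGF, at -1.58, -1.81 and -1.89.

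Without EGF, the libraries labelled BRCA2 siRNA had lower RNA than control siRNA libraries for 5 receptors and higher RNA for none of the 10 by the test. The log2 difference was -1.89 ± 0.36 for KDR (0.269-fold, limma adjusted p = 0.00578), -1.81 ± 0.30 for FGFR2 (0.286-fold, limma adjusted p = 0.00340) and -1.58 ± 0.42 for FGFR3 (0.334-fold, limma adjusted p = 0.0236). DDR1, with a difference of -0.56 ± 0.11 (0.678-fold, limma adjusted p = 0.00713), and IGF1R, with -0.52 ± 0.12 (0.697-fold, limma adjusted p = 0.0124), were the other two. This comparison and that of EGF withdrawal under control siRNA share the 2 control siRNA libraries without EGF. The difference was 0.46 ± 0.15 for AXL (limma adjusted p = 0.0516), 0.53 ± 0.27 for DDR2 (0.183), -0.12 ± 0.11 for MST1R (0.494), -0.06 ± 0.11 for FGFR1 (0.757) and 0.01 ± 0.23 for MET (0.986).

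Of all genes tested 20.5% passed between the siRNAs without EGF, 11.2% higher and 9.36% lower, and the median was -0.32 over the 10 receptors and 0.0062 over all genes. Of the 6 epithelial markers past the filter 4 were lower, CDH1 (E-cadherin, -1.96 ± 0.26), CLDN1 (-2.22 ± 0.70), KRT8 (-0.76 ± 0.10) and ESRP1 (-0.60 ± 0.19), and KRT18 was higher (0.45 ± 0.12), with a median of -0.68. Lower values were not particular to epithelial markers. Of 10 fibroblast and mesenchymal markers 4 were lower and 1 higher (median -0.49). Of 8 basal markers 2 were lower and 0 higher (median -0.22), and of 5 luminal mammary markers 1 was lower and 1 higher (median 0.03). With 1 library left out, CDH1 and KRT8 kept their calls in all 11 fits, while KRT18 lost its call in 4, CLDN1 in 7 and ESRP1 in 8. The part of these markers in the receptor results was not tested. The libraries labelled BRCA2 siRNA lay wholly below control siRNA libraries for 6 receptors and wholly above for AXL alone, against 62.3% of all genes tested that did not overlap (29% below and 33.2% above). Leaving out control siRNA without EGF replicate A ended the calls of FGFR3 (-1.79, limma adjusted p = 0.0964), IGF1R (-0.41, 0.140) and DDR1 (-0.54, 0.0769), and leaving out its replicate C those of FGFR3 (-1.37, 0.152) and KDR (-1.77, 0.0535). FGFR3 was also lost without BRCA2 siRNA without EGF replicate A (-1.31, limma adjusted p = 0.0931) or B (-1.56, 0.0648), and IGF1R without that replicate A (-0.45, 0.0537). AXL passed in 5 of the 11 such fits: without control siRNA with EGF replicate B (0.46, limma adjusted p = 0.0447) or C (0.46, 0.0245), without BRCA2 siRNA with EGF replicate B (0.46, 0.0272) or C (0.46, 0.0470), and without BRCA2 siRNA without EGF replicate C (0.54, 0.0415).

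With EGF present, 0 of the 10 receptors passed the limma test between the siRNAs, and 1 of them had an unadjusted p under 0.05. Over all genes 1 passed, which is 0.00557% of those tested, and 508 had an unadjusted p under 0.05. That receptor was MST1R, at -0.23 ± 0.10 (95% interval -0.44 to -0.0098, limma adjusted p = 0.999), and it was the only one whose libraries did not overlap, being lower in those labelled BRCA2 siRNA. By this measure 5.88% of all genes tested were apart, 3.38% lower and 2.51% higher. For the other nine, the estimates ran from -0.13 for MET and AXL to 0.27 for FGFR2. The 95% interval was widest for FGFR3, at -0.88 to 0.79, and ran from -0.33 to 0.86 for FGFR2, from -0.53 to 0.88 for KDR, from -0.30 to 0.17 for IGF1R and from -0.43 to 0.16 for AXL.

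The difference between the 2 withdrawal responses was tested as an interaction term, and 3.32% of all genes passed, 1.38% higher and 1.93% lower. FGFR2 (-2.07 ± 0.41, limma adjusted p = 0.0307) and KDR (-2.07 ± 0.48, limma adjusted p = 0.0445) passed, each responding less in libraries labelled BRCA2 siRNA. The other estimates were -1.53 ± 0.57 for FGFR3 (limma adjusted p = 0.147), -0.46 ± 0.16 for IGF1R (0.128), -0.44 ± 0.15 for DDR1 (0.121), 0.59 ± 0.20 for AXL (0.121), 0.57 ± 0.36 for DDR2 (0.389), 0.14 ± 0.30 for MET (0.832), 0.11 ± 0.15 for MST1R (0.709) and 0.02 ± 0.15 for FGFR1 (0.968). The median was -0.21 over the 10 receptors.

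These 2 calls were lost in most of the 11 fits that leave out 1 library each, 7 for FGFR2 and 8 for KDR. The estimates stayed between -2.37 and -1.86 for FGFR2 and between -2.44 and -1.84 for KDR. FGFR2 was lost without replicate A of control siRNA with EGF (-1.99, limma adjusted p = 0.0928), BRCA2 siRNA with EGF (-2.08, 0.0559), control siRNA without EGF (-2.18, 0.122) or BRCA2 siRNA without EGF (-1.87, 0.0744), without replicate B of BRCA2 siRNA without EGF (-2.06, 0.0816), and without replicate C of BRCA2 siRNA with EGF (-1.94, 0.0719) or control siRNA without EGF (-1.96, 0.134). KDR was lost without the same 7 libraries, with limma adjusted p of 0.125, 0.0865, 0.156, 0.121, 0.0999, 0.0978 and 0.166 in that order, and without replicate B of control siRNA with EGF (-1.84, 0.0619). Without replicate C of control siRNA with EGF, IGF1R (-0.54, limma adjusted p = 0.0448), FGFR3 (-1.88, 0.0461) and AXL (0.71, 0.0388) passed as well, and without replicate C of BRCA2 siRNA without EGF DDR1 passed (-0.54, 0.0413).

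The lettered replicates were also compared within each letter, since letters A and C are held by all 4 groups. Withdrawal under control siRNA gave 3.46 in A and 3.03 in C for FGFR3, 3.17 and 2.62 for FGFR2, 2.66 and 1.89 for KDR, 1.52 and 0.99 for IGF1R, 1.07 and 0.95 for DDR1, and -1.32 and -1.09 for AXL. Each of these 6 receptors kept its direction in both letters. That follows from the groups, which did not overlap for any of the 10 receptors in this comparison, and adds no support. In libraries labelled BRCA2 siRNA, withdrawal gave 1.28 in A, 2.62 in B and 2.01 in C for FGFR3, and 0.64, 1.27 and 1.20 for FGFR2. KDR gave -0.06 in A, 1.06 in B and 0.30 in C, and DDR2 gave 0.31, -0.32 and -0.46, so these 2 did not keep 1 sign.

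**Figure D3:**
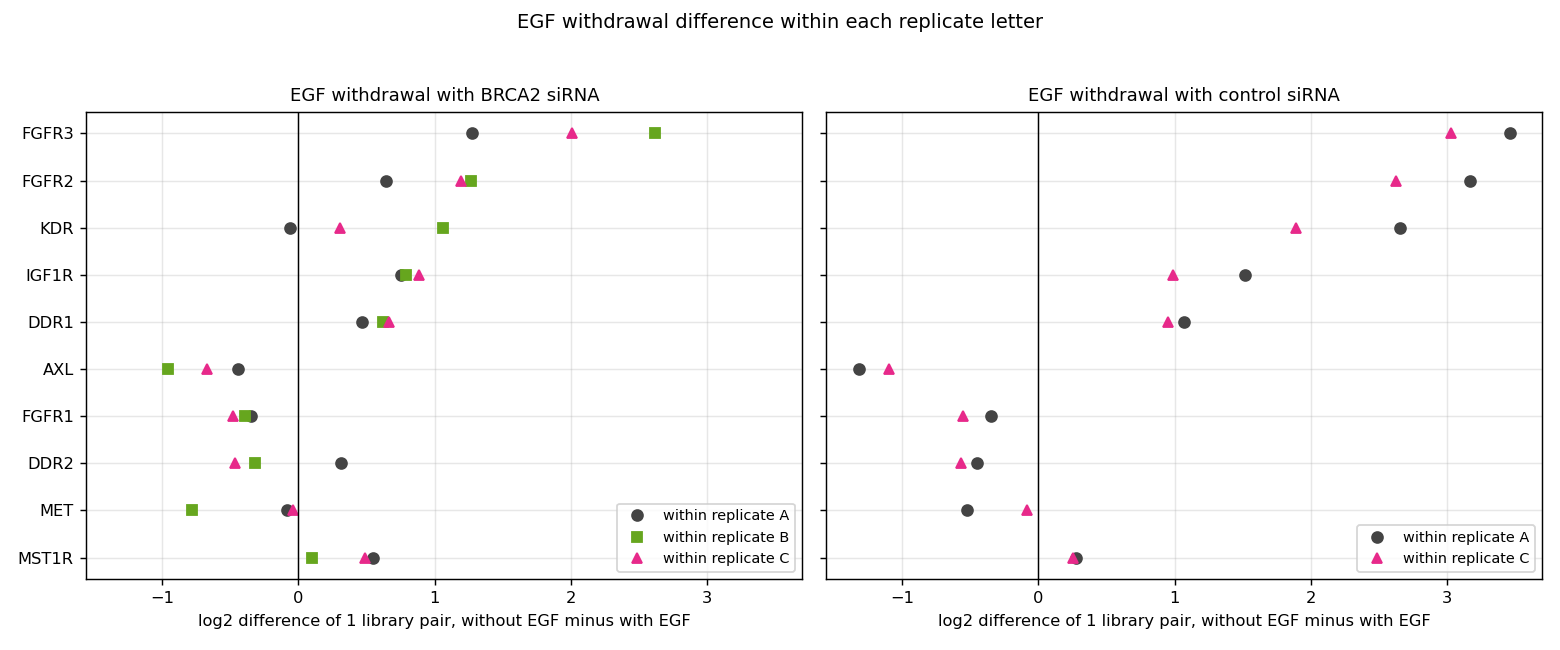
Difference between 1 library without EGF and 1 with EGF of the same replicate letter (horizontal axis, log2), for the 10 receptor genes with BRCA2 siRNA (left) and control siRNA (right). All 5 receptors that rose under control siRNA lie between 0.95 and 3.46 in both letters there, and KDR spans 0 with BRCA2 siRNA.

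Between the siRNAs without EGF, the within-letter differences were -2.11 in A and -1.48 in C for FGFR2, -2.12 and -1.72 for KDR, -1.92 and -1.20 for FGFR3, -0.77 and -0.26 for IGF1R, -0.76 and -0.33 for DDR1, and 0.61 and 0.34 for AXL. The direction was the same in both letters for these 6, as it must be where the groups do not overlap, with the larger difference in A. With EGF, replicate C stood above B under both siRNAs for FGFR3 (by 1.23 in libraries labelled BRCA2 siRNA and 1.20 in control siRNA libraries), KDR (1.02 and 1.19) and FGFR2 (0.53 and 1.02). For MET (-0.84 and -0.66), DDR2 (-0.42 and -0.79) and AXL (-0.43 and -0.39) C stood below B. IGF1R (0.06 and 0.20) and DDR1 (0.20 and 0.07) were also higher in C under both siRNAs, by less. All 5 of the receptors that rose on EGF withdrawal under control siRNA were thus higher in C than in B with EGF. This count was not made over all genes, so it shows no trait of the receptors. Over all genes tested, the B pair and the C pair with EGF also deviated together from their group means (r = 0.695 and 0.700). The part of the spread between B and C in the results was not tested.

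Pathway genes were examined in 5 lists, and each count is to be set beside the share of all genes tested. For EGF withdrawal 27.1% of all genes passed in libraries labelled BRCA2 siRNA (13.4% higher and 13.8% lower). Under control siRNA 50.8% passed (24.7% higher and 26.1% lower), and between siRNAs without EGF 20.5% did (11.2% higher and 9.36% lower). Of 30 other receptor tyrosine kinases 18 passed the filter, and EGF withdrawal raised 5 and lowered 0 in libraries labelled BRCA2 siRNA, with a median of 0.28, and raised 8 and lowered 2 under control siRNA, with a median of 0.22. INSR, the insulin receptor and nearest relative of IGF1R, rose by 0.78 ± 0.18 in libraries labelled BRCA2 siRNA and by 1.56 ± 0.20 under control siRNA (limma adjusted p = 0.0110 and 0.000126). PTK7, a pseudokinase receptor of Wnt signalling, ROR1, a WNT5A receptor, and ROS1 rose under both siRNAs, by 0.48, 0.54 and 0.69 in libraries labelled BRCA2 siRNA and by 0.65, 0.82 and 1.23 in control siRNA libraries. The fibroblast marker PDGFRA, a PDGF receptor, rose by 1.63 ± 0.32 under control siRNA (limma adjusted p = 0.00162), with a difference of 0.34 ± 0.29 in libraries labelled BRCA2 siRNA (limma adjusted p = 0.391). Between siRNAs without EGF 2 of the 18 were lower, INSR (-0.71, limma adjusted p = 0.0320) and PDGFRA (-1.22, 0.0221). These calls were lost in 4 and 3 of the 11 fits that leave out 1 library each, and PDGFRA was near the filter, at 3.73 to 5.75.

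Of 41 ligands of the receptors 37 were in the table and 21 passed the filter. Withdrawal raised 5 and lowered 2 in libraries labelled BRCA2 siRNA (median -0.18), and raised 9 and lowered 7 under control siRNA (median 0.38). Collagens that bind DDR1 and DDR2 were among those that rose: COL1A1 by 1.90 ± 0.22 in libraries labelled BRCA2 siRNA and 3.05 ± 0.24 under control siRNA (limma adjusted p = 0.000571 and 1.11e-05), while COL3A1 and COL5A1 rose by 1.38 and 1.08 in libraries labelled BRCA2 siRNA and by 2.32 and 1.44 under control siRNA. COL1A2, which encodes the partner chain of COL1A1, and COL2A1 were below the filter. The basement membrane collagens COL4A1 (-0.35 ± 0.08, limma adjusted p = 0.00500) and COL4A2 (-0.46 ± 0.10, limma adjusted p = 0.00387) fell under control siRNA. For AXL, whose own RNA fell, the ligand GAS6 rose by 0.31 ± 0.08 in libraries labelled BRCA2 siRNA and 0.27 ± 0.09 under control siRNA (limma adjusted p = 0.0216 and 0.0322). PROS1, protein S, a ligand of the related receptors TYRO3 and MERTK, rose by 0.66 ± 0.20 in libraries labelled BRCA2 siRNA and by 1.90 ± 0.22 under control siRNA (limma adjusted p = 0.0320 and 6.46e-05).

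Ligands of the VEGF receptors moved in both directions under control siRNA. PGF, which binds FLT1 and not KDR, fell by 1.52 ± 0.26 in libraries labelled BRCA2 siRNA and fell by 2.77 ± 0.29 under control siRNA (limma adjusted p = 0.00296 and 3.91e-05). Under control siRNA VEGFA fell by 1.41 ± 0.44 (limma adjusted p = 0.0203) and VEGFC fell by 1.11 ± 0.14 (8.18e-05), while VEGFB rose by 0.38 ± 0.11 (0.0167) and VEGFD by 1.47 ± 0.30 (0.00194). None of these 4 passed in libraries labelled BRCA2 siRNA, where VEGFA was at -0.31 ± 0.39 and VEGFC at -0.19 ± 0.12, and for VEGFC the difference between responses passed as well (0.92 ± 0.18, limma adjusted p = 0.0307).

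Among the FGFs, FGF2 fell by 1.82 ± 0.54 under control siRNA (limma adjusted p = 0.0164), FGF5 fell by 1.28 ± 0.27 (0.00254), and FGF1 rose by 0.84 ± 0.16 (0.00117). In libraries labelled BRCA2 siRNA FGF1 fell instead, by 0.57 ± 0.14 (limma adjusted p = 0.0135), and its interaction term was -1.41 ± 0.21 (limma adjusted p = 0.0178). FGF7, the ligand of the epithelial form of FGFR2, was at -0.24 ± 0.33 in libraries labelled BRCA2 siRNA and 0.43 ± 0.36 under control siRNA (limma adjusted p = 0.601 and 0.346). HGF, the ligand of MET, MST1, which encodes macrophage-stimulating protein, and IGF2 did not pass under either siRNA, and IGF1 was below the filter. Without EGF, libraries labelled BRCA2 siRNA had 5 ligands higher and 7 lower than control siRNA libraries (median -0.39), with MST1 at -0.86 ± 0.24 (limma adjusted p = 0.0262).

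Of 31 co-receptors, decoys, binding proteins and ligand-processing genes 29 were in the table and 26 passed the filter. Withdrawal raised 9 and lowered 3 in libraries labelled BRCA2 siRNA (median 0.20), and raised 11 and lowered 4 under control siRNA (median 0.27). Genes of the IGF-binding proteins, which hold IGF1 and IGF2 outside the cell, rose with IGF1R: IGFBP2 by 1.70 ± 0.13 in libraries labelled BRCA2 siRNA and 1.87 ± 0.15 under control siRNA (limma adjusted p = 0.000117 and 1.06e-05), while IGFBP3, IGFBP6 and IGFBP7 rose by 1.62, 0.70 and 0.32 in libraries labelled BRCA2 siRNA and by 2.44, 1.37 and 0.53 under control siRNA. IGFBP4 was at -0.09 ± 0.12 in libraries labelled BRCA2 siRNA and -0.08 ± 0.13 under control siRNA (limma adjusted p = 0.591 and 0.629).

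IGFBP5 without EGF had log2 values of 4.14, 4.54 and 4.52 in libraries labelled BRCA2 siRNA and 7.06 and 7.05 in control siRNA libraries. Its values with EGF were 3.52, 3.32 and 3.98 in libraries labelled BRCA2 siRNA and 3.24, 3.82 and 4.20 in control siRNA libraries. Like KDR, it stood apart in both control siRNA libraries without EGF. It rose by 0.79 ± 0.25 in libraries labelled BRCA2 siRNA and by 3.31 ± 0.28 under control siRNA (limma adjusted p = 0.0362 and 1.24e-05), with an interaction of -2.51 ± 0.37 (limma adjusted p = 0.0178). The HGF-activating protease matriptase, ST14, rose by 0.95 ± 0.32 in libraries labelled BRCA2 siRNA and by 2.98 ± 0.36 under control siRNA, with an interaction of -2.03 ± 0.49 (limma adjusted p = 0.0478). Its inhibitor SPINT1 was at 0.35 ± 0.16 in libraries labelled BRCA2 siRNA and rose by 1.51 ± 0.17 under control siRNA, with an interaction of -1.16 ± 0.23 (limma adjusted p = 0.0307). PLXNB1, a semaphorin receptor that associates with MET, rose by 0.97 in libraries labelled BRCA2 siRNA and by 1.61 under control siRNA. The VEGF co-receptor NRP2 fell by 0.37 in libraries labelled BRCA2 siRNA and fell by 0.99 under control siRNA.

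**Figure D4:**
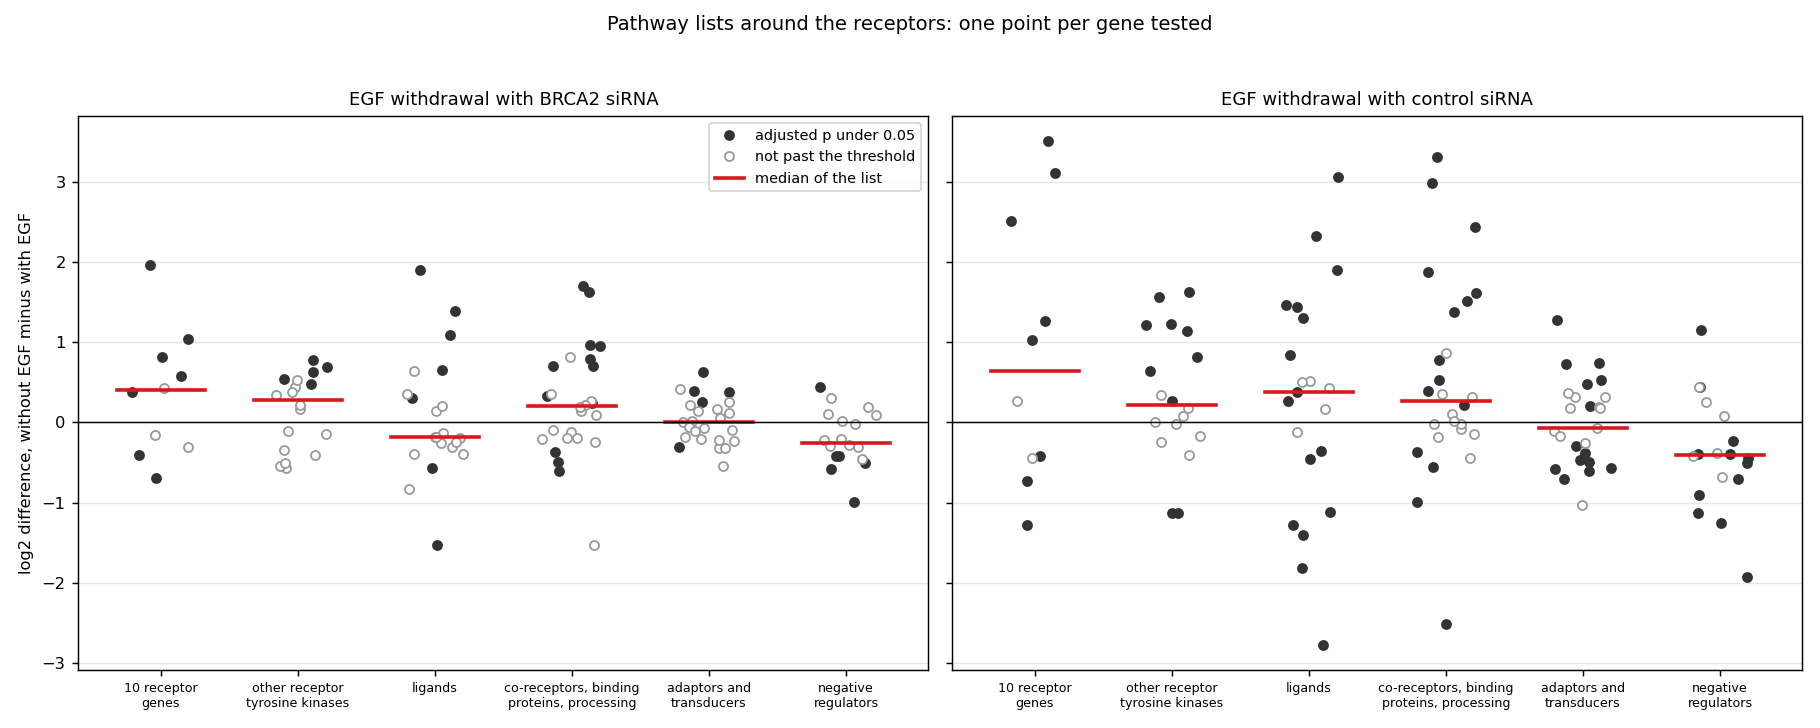
Log2 difference without EGF minus with EGF (vertical axis) for each gene past the filter in the 10 receptor genes and the 5 pathway lists, 1 point per gene, for BRCA2 siRNA and for control siRNA. Filled points passed the test and red lines are medians. Negative regulators have the lowest medians, -0.25 with BRCA2 siRNA and -0.40 with control siRNA, and the 10 receptors have medians of 0.41 and 0.65.

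Adaptors and signal transducers changed in both directions, as did all genes tested, of which 27.1% passed in libraries labelled BRCA2 siRNA and 50.8% under control siRNA. Of 29 genes 28 were in the table and 25 passed the filter, and withdrawal raised 4 and lowered 1 in libraries labelled BRCA2 siRNA (median 0.0078) and raised 6 and lowered 8 under control siRNA (median -0.066). PIK3R1, the p85-alpha regulatory subunit of PI3-kinase, rose by 0.63 ± 0.08 in libraries labelled BRCA2 siRNA and by 1.27 ± 0.09 under control siRNA (limma adjusted p = 0.000845 and 8.17e-06). FRS2, the docking protein of the FGF receptors, rose by 0.38 in libraries labelled BRCA2 siRNA and by 0.52 under control siRNA, and the adaptor CRK fell by 0.31 in libraries labelled BRCA2 siRNA and fell by 0.57 under control siRNA. PTPN11, which encodes the phosphatase SHP2, fell by 0.60 ± 0.09 under control siRNA (limma adjusted p = 0.000237) and was at -0.21 ± 0.08 in libraries labelled BRCA2 siRNA (limma adjusted p = 0.0717). SRC rose by 0.25 ± 0.08 in libraries labelled BRCA2 siRNA and fell by 0.58 ± 0.09 under control siRNA, with an interaction of 0.83 ± 0.12 (limma adjusted p = 0.0178).

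Of 21 negative regulators of receptor signalling 18 passed the filter. Withdrawal raised 1 and lowered 5 in libraries labelled BRCA2 siRNA (median -0.25), and raised 2 and lowered 10 under control siRNA (median -0.40). SOCS2, a suppressor of cytokine signalling, fell by 1.00 ± 0.15 in libraries labelled BRCA2 siRNA and fell by 1.93 ± 0.17 under control siRNA (limma adjusted p = 0.00187 and 1.90e-05). PTPN1, the phosphatase that acts on the insulin and IGF1 receptors, fell by 0.41 ± 0.13 in libraries labelled BRCA2 siRNA and fell by 1.25 ± 0.15 under control siRNA (limma adjusted p = 0.0400 and 6.77e-05). SH2B3 fell by 1.13 ± 0.16 under control siRNA (limma adjusted p = 0.000248). LRIG1, a transmembrane inhibitor of receptor kinases, rose by 0.44 in libraries labelled BRCA2 siRNA and by 0.45 under control siRNA, and LRIG3 rose by 1.16 ± 0.17 under control siRNA (limma adjusted p = 0.000257). Without EGF, libraries labelled BRCA2 siRNA had 4 of the 18 higher than control siRNA libraries and 1 lower. In all 5 lists 0 genes passed limma between the siRNAs with EGF, and 1 of the other receptor tyrosine kinases, 1 ligand and 1 adaptor had an unadjusted p under 0.05.

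Many of these list calls were lost when 1 library was left out. In the 11 fits that leave out 1 library each, 14 of the 35 list calls for withdrawal in libraries labelled BRCA2 siRNA and 44 of the 67 under control siRNA held throughout, as did 9 of the 31 between siRNAs without EGF and 0 of the 11 for the interaction. Under control siRNA the calls of GAS6, VEGFA and FGF2 were lost without either library without EGF and without replicate A or B with EGF (limma adjusted p up to 0.208, 0.0930 and 0.0791), that of VEGFB without either library without EGF or replicate A with EGF (up to 0.0873), and that of LRIG1 without replicate C without EGF (0.0646). Of the calls named in libraries labelled BRCA2 siRNA, INSR and LRIG1 were lost in 1 fit, IGFBP3 and IGFBP7 in 3, ROS1 and GAS6 in 4, PROS1 in 5, IGFBP5 in 6, PTPN1 in 7, NRP2 and SRC in 8 and ST14 in 9. Those of PTK7, ROR1, COL1A1, COL3A1, COL5A1, PGF, FGF1, IGFBP2, IGFBP6, PLXNB1, PIK3R1, FRS2, CRK and SOCS2 were lost in none.

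The genes whose levels followed the 3 most changed receptors most closely were found by Pearson's r over the 11 libraries on the log2 scale, as a description. The libraries share their EGF groups, so many genes correlate this strongly. For FGFR3 they were RMDN2 (r = 0.995), TBC1D32 (0.9939) and FRK (0.9936). For FGFR2 they were ALDH3A2 (r = 0.9967), VSNL1 (0.9956) and FLVCR2 (0.9929). For KDR they were HES2 (r = 0.9951), KIAA0825 (0.9905) and CA2 (0.9848), and CA2 differed on withdrawal by 0.57 in libraries labelled BRCA2 siRNA and by 3.20 under control siRNA.

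Exons of FGFR1, AXL, DDR1 and MST1R overlap those of other annotated genes, mostly on the other strand: 156 bases of FGFR1's 13842 with an antisense gene and 138 with LETM2, 67 of AXL's 5154, 90 of DDR1's 9122 with MIR4640, and 29 and 327 of MST1R's 5252 with antisense genes. Whether reads were counted by strand is not given in the sources used here, so reads of these short stretches are uncertain.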

How the data were processed

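The authors deposited 1 table of log2 expression values (-2.94 to 20.62) for 40460 Ensembl genes in 11 libraries. Named in the submitters' processing notes, with no role or order, are hg19, TopHat2 2.0.11, DESeq2 and limma. For the counter, annotation, normalization and filters, nothing is given in the sources used here. The table holds no counts, so depth and counting error are unknown. Column names were matched to sample labels.

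A gene was tested where 2 or more libraries reached a log2 value of 3.32, a linear value of 10 (17945 genes). limma 3.58.1 in R 4.3.3 was fitted to the deposited log2 values as 4 group means over all 11 libraries (7 residual degrees of freedom, mean-variance trend, two-sided, no pseudocount), giving 5 comparisons, each with Benjamini-Hochberg adjustment over all genes and a threshold of 0.05. Errors after ± are moderated SEs. The fit was tested on simulated data. Where p is given without a tool it is from this fit.

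The 10 receptors and the lists were chosen with earlier results of these data known. All 10 are named; from each list up to 4 genes with the smallest p in a comparison are named, and any ligand or co-receptor of a receptor. Of 15 same-letter pairs of libraries, only the B pair and the C pair with EGF deviated together from their group means (r = 0.695 and 0.700). In no other pair was r above 0.0372. This check cannot show a level shared by all A libraries, since for each gene their mean equals that of the B and C libraries. The labels do not say that a letter is a shared batch, so letters were not used as a block in the main fit. The fit made no allowance for the equal means. The promoter sequences are from RefSeq, and 92.9% of the 40460 identifiers matched a symbol. Alternatives were quantile normalization, no filter or a minimum of 100, only the groups compared, the letters as a block, a term for A, letters B and C alone, no trend and each library left out; letters A and C alone were added after seeing the data.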

Additional observations from a re-analysis of the deposited data

Results flagged for a closer look

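The response of FGFR2 to EGF withdrawal differed between the siRNAs, with an interaction of -2.07 ± 0.41 on the log2 scale (limma adjusted p = 0.0307): FGFR2 rose by 1.04 in libraries labelled BRCA2 siRNA and by 3.11 in control siRNA libraries. The response of KDR differed by -2.07 ± 0.48 (limma adjusted p = 0.0445), with differences of 0.43 in libraries labelled BRCA2 siRNA and 2.51 in control siRNA libraries. These calls were lost in 7 (FGFR2) and 8 (KDR) of the 11 fits that leave out 1 library each. Letters A and C, which both siRNAs have, split the same libraries and so add no support. In each of these letters the response was smaller in the libraries labelled BRCA2 siRNA for both genes. BRCA2 RNA was not lower in those libraries. No group holds more than 3 libraries, so a search for single outlying libraries within groups was not made.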

How the results depend on the processing

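Over the alternatives, 909 values of single receptors kept their side of the threshold, 62 lost a call and 19 gained one. A change of sign was counted as reversed only where either fit passed, and 0 were. Values that passed in neither fit could change sign and still be among the 909. DDR2 on withdrawal in libraries labelled BRCA2 siRNA, for example, ran from -0.29 to 0.05 with 1 library left out. Counts of genes passing were 9121 for EGF withdrawal under control siRNA, 4871 under BRCA2 siRNA, 3687 between siRNAs without EGF, 1 with EGF and 595 for the interaction. With letters B and C alone, where control siRNA without EGF has 1 library assumed to vary like the others, they were 2074, 47, 0 (2070 at unadjusted limma p under 0.05), 0 (156) and 0 (990), and of the 10 receptors 0 passed under BRCA2 siRNA (6 unadjusted), 0 between siRNAs without EGF (3) and 0 for the interaction (2). With A and C alone, 2989 genes passed for withdrawal under BRCA2 siRNA, 0 between siRNAs with EGF (917) and 0 for the interaction (3475), with 0 receptors (5). With only the groups compared 6776 passed between siRNAs without EGF, and without the trend 375 genes and 1 receptor for the interaction. Between siRNAs with EGF the count was also 0 under the minimum of 100 (284), only the groups compared (337), the replicate block (515) and a term for A (374).

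With the replicate block the counts were 8892, 5459, 4181, 0 and 930, and FGFR3 passed the interaction test (-1.33, limma adjusted p = 0.0371), while AXL passed between siRNAs without EGF (limma adjusted p = 0.0255). Leaving out 1 library each gave 6164 to 10023, 2228 to 6202, 624 to 4767, 0 to 1 and 0 to 1606 genes, and 6 to 10, 4 to 7, 2 to 6, 0 to 0 and 0 to 5 receptors. DDR2 under control siRNA also lost its call without the filter (limma adjusted p = 0.0573), and so did MST1R under BRCA2 siRNA (0.0510). Of 495 list counts 118 moved by over 1.5 times. No pseudocount was varied, since the values are logs.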

Other observations

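Chosen after its values were seen, the neighbourhood of KDR on chromosome 4 holds another receptor gene that rose on EGF withdrawal under control siRNA. This gene, PDGFRA, was near the filter of 3.32, at 3.73 to 5.75 over all libraries. Of all genes tested 24.7% rose in that comparison, so a neighbour that rose shows no trait of the region. In RefSeq order, PDGFRA, KIT and KDR follow each other. PDGFRA rose on EGF withdrawal under control siRNA (1.63 ± 0.32, limma adjusted p = 0.00162), was at 0.34 ± 0.29 in libraries labelled BRCA2 siRNA (limma adjusted p = 0.391) and was lower in those libraries than in control siRNA libraries without EGF (-1.22 ± 0.32, limma adjusted p = 0.0221). Its interaction was -1.29 ± 0.43 (limma adjusted p = 0.114). The call of PDGFRA between siRNAs without EGF was lost in 3 of the 11 fits that leave out 1 library each. KIT and GSX2 were below the filter. The next genes beyond KDR were at -0.03 ± 0.11 for SRD5A3 (limma adjusted p = 0.832) and -0.05 ± 0.10 for TMEM165 (limma adjusted p = 0.674) on withdrawal under control siRNA, while CHIC2, on the other side of PDGFRA, fell by 1.43 ± 0.44 (limma adjusted p = 0.0193) and CLOCK fell by 0.32 ± 0.09 (limma adjusted p = 0.0122).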
